A study of Mus musculus with 2 samples.

Results

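The epidermal growth factor (EGF) receptor, its dimerisation partner ErbB2 and the 7 ligands of the receptor were followed in skin of newborn mice with and without Sdr9c7. All array probes named for Ereg, Hbegf, Areg, Tgfa, Btc, Epgn, Egf, Egfr or Erbb2 were taken, which gave 11 probes for 9 genes out of 39417 probes for 31035 gene names. Each probe was well above background on both arrays. The study compared Sdr9c7-/- mice with wild type mice, all on a C57BL/6J background and at postnatal day 0. Sdr9c7 encodes a dehydrogenase of the differentiating epidermis, and the title of the study places it in the formation of the skin barrier by acylceramides. Each genotype was represented by 1 microarray, hybridised with pooled RNA from the dorsal skin of 5 animals, on the same slide. The differences below therefore have no replicate behind them, and no test across animals was possible. How the knockout allele was made was not determined here.

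The EGF receptor is a tyrosine kinase at the surface of keratinocytes. Its ligands are made as membrane-anchored precursors, and cell surface proteases release them to act on the same or on neighbouring cells. Ligand binding lets the receptor pair with itself or with ErbB2, which has no ligand of its own, and starts the Ras and ERK cascade that induces early response genes and, with them, feedback inhibitors. In epidermis this pathway is known for keratinocyte proliferation and migration, for wound repair and for the shape of hair follicles. Several of the ligand genes are themselves induced by receptor activity.

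The 2 arrays gave intensities that were scaled to the 75th percentile of each array, so that a relative signal of 1 equals that percentile. Signals of different probes were not read as relative amounts of transcript. They were used to group genes of similar brightness and were summed within marker lists, where bright probes weigh most. Spots well above background made up 75.8% on the wild type array and 77.7% on that of the knockout. The target gene Sdr9c7 had a relative signal of 0.324 in wild type and 0.0479 in knockout skin, a log2 difference of -2.76. The probes of keratinocyte markers gave strong signals on both arrays (Krt1, a keratin of the suprabasal layers, 112 and 114, and Krt5, a keratin of the basal layer, 23.8 and 26.3). Markers of muscle and fat were also well above background, as in whole skin, although the design text speaks of epidermis. All 8 skeletal muscle markers were lower in the knockout, with a summed relative signal of 138 against 77.5, and all 8 adipocyte markers likewise, with 80.1 against 52.5. The median log2 difference over all measured genes was -0.04. Lower signal from fewer cells of a type and from less RNA per cell cannot be told apart in whole skin. The part of these tissues in the differences below was not tested.

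Among the 9 genes, the ligands Ereg and Hbegf were the 2 that exceeded 2-fold, both higher in knockout skin, and none was lower by that much. Ereg was 3.60-fold and Hbegf 2.64-fold higher, whereas Egfr was 1.19-fold lower and Erbb2 differed by -0.00 on the log2 scale. Of the 22714 measured genes, 1.88% were at least 2-fold apart, 0.528% on the higher and 1.35% on the lower side. The ligands fell on both sides, with 4 above 0 (Ereg, Hbegf, Areg and Epgn) and 3 below (Egf, Btc and Tgfa). Signs alone do not set the ligands apart, since the median of all measured genes lay close to 0. Beyond 1.5-fold were Ereg, Hbegf and Areg on the higher side and Egf on the lower side, which is 4 of 9 genes beside 8.40% of all measured genes. The median log2 difference over the 9 genes was -0.00, and that over all measured genes was -0.04.

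**Figure D1:**
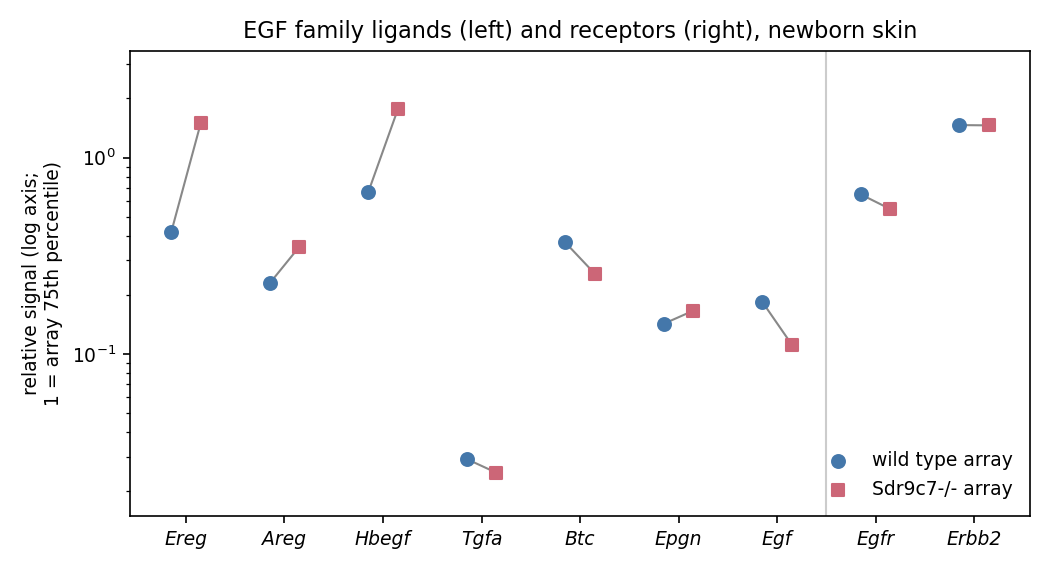
Relative signal of each gene on the wild type array (circles) and the Sdr9c7-/- array (squares), on a log axis where 1 is the 75th percentile of the array; the mean over 3 probes is drawn for Egfr and 1 probe for each other gene. Ereg goes from 0.416 to 1.497 and Hbegf from 0.666 to 1.76, while Erbb2 stands at 1.46 on both arrays.

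Ereg encodes epiregulin, a ligand that binds the EGF receptor and ErbB4 and is induced in stimulated keratinocytes. The single Ereg spot read a processed intensity of 727 in wild type and 2879 in knockout skin. After scaling, its relative signal was 0.416 and 1.497, a log2 difference of 1.85. It was the 28th highest of the 22714 measured genes. Among the 1136 genes in the same twentieth of wild type signal, none exceeded Ereg, and the 99th percentile of their differences was 0.74. The probe lies at chr5:91522553-91522612 (mm9, plus strand), and the first 30 of its 60 bases identify it below. Which exon or UTR holds it was not determined, since no annotation of that build was used.

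Ereg probe, first 30 bases: gatagtcatgtaccttgacatagtgaagga

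Hbegf encodes heparin-binding EGF-like growth factor, which binds the EGF receptor and ErbB4 and is known from the migrating edge of epidermal wounds. Its single spot read 1163 in wild type and 3380 in knockout skin, or 0.666 and 1.76 after scaling. The log2 difference was 1.40, the 55th highest of all measured genes. None of the 1135 other genes of similar wild type signal exceeded it, and their 99th percentile was 0.54. Ereg and Hbegf were thus set apart from genes of like brightness in the same direction, on the only array of each genotype.

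Areg encodes amphiregulin, an autocrine growth factor of keratinocytes that binds the EGF receptor. Its intensity was 400 in wild type and 675 in knockout skin, with relative signals of 0.229 and 0.351. The log2 difference was 0.62, or 1.53-fold, below the 2-fold threshold. Of the 1135 other genes of similar signal, 15 were higher, so Areg lay near the upper edge of their range but inside it. The Areg probe lies at chr5:91570090-91570149 (mm9, plus strand) and is printed whole, as the probe on which this smaller difference rests.

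Areg probe: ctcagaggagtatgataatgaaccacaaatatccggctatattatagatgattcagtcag

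Epgn encodes epigen, a ligand of low affinity for the EGF receptor that is expressed in skin. Its relative signal was 0.142 in wild type and 0.166 in knockout skin, a log2 difference of 0.22. Probes of one gene differed by a pooled SD of 0.22 (over 3534 genes), and 190 genes of similar signal stood higher. With 1 spot the probe has no spread of its own.

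On the lower side, Egf and Btc differed most. Egf encodes the founding member of the family, and its probe was printed at 10 positions of each array. The relative signal over these spots ran from 0.163 through a median of 0.185 to 0.206 in the wild type, and from 0.101 through 0.113 to 0.119 in the knockout. Every knockout spot lay below every wild type spot. The log2 difference was -0.72 ± 0.09 (SD, n = 10 spots on 1 array per genotype), or 1.65-fold lower. The spread between spots is a technical error and says nothing of the spread between animals. Among genes of similar signal 37 were lower than Egf, and the 5th percentile of their differences was -0.61.

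Btc encodes betacellulin, a ligand of the EGF receptor and ErbB4. Its single spot read 646 in wild type and 493 in knockout skin, with relative signals of 0.370 and 0.256. The log2 difference was -0.53, or 1.44-fold lower. It lay between the 5th percentile (-0.63) and the median of genes of similar signal.

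Tgfa encodes transforming growth factor alpha, the ligand whose loss gives mice wavy hair. It was the dimmest of the probes, with relative signals from 0.0255 to 0.0322 in the wild type and from 0.0215 to 0.0275 in the knockout over 9 spots, ranges that overlapped. The lowest signals taken as well above background were 0.00563 and 0.00435. The log2 difference was -0.23 ± 0.14 (SD, n = 9 spots), and all 9 spots were below 0. One spot at -0.57 stood apart from the rest, and without it the mean over the other 8 was -0.19. Among genes of similar signal 438 were lower, so this difference was unremarkable at that brightness.

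**Figure D2:**
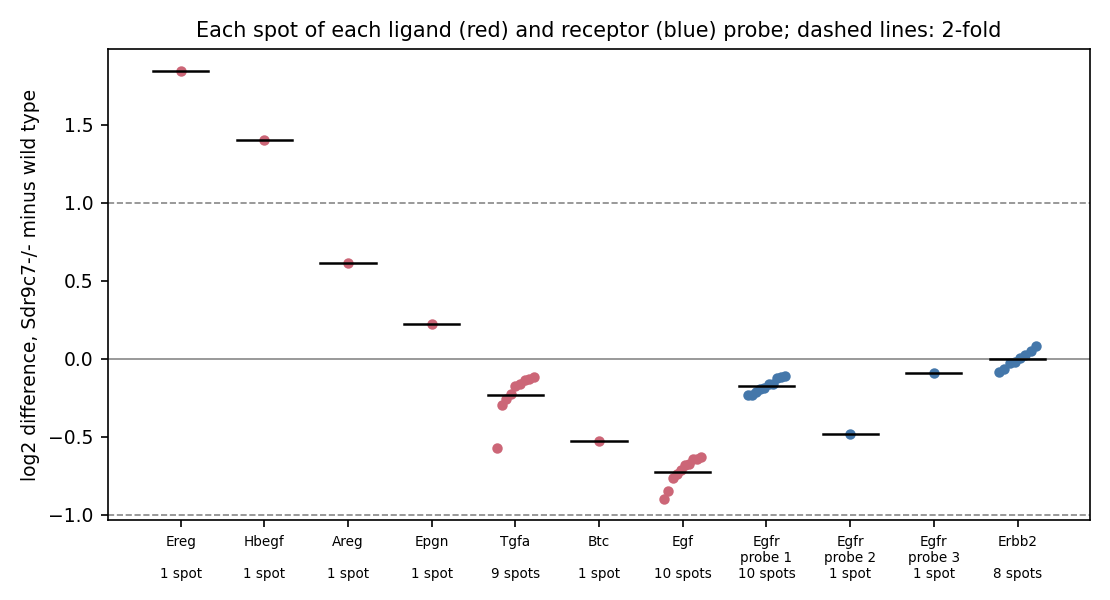
Log2 difference (Sdr9c7-/- minus wild type) of every spot, by probe, with a bar at the mean of the probe; ligands are red, receptors blue, and dashed lines mark 2-fold. Ereg and Hbegf rest on 1 spot each, whereas all 10 Egf spots lie between -0.90 and -0.63 and the 8 Erbb2 spots lie on both sides of 0.

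Both receptors were close between the genotypes. Erbb2, the co-receptor, had relative signals from 1.38 through a median of 1.47 to 1.54 in the wild type and from 1.43 through 1.47 to 1.49 in the knockout over 8 spots. The log2 difference was -0.00 ± 0.06 (SD, n = 8 spots), with 4 spots above 0 and 4 below, so the arrays overlapped fully.

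Egfr, the receptor itself, had 3 probes, designed against 2 RefSeq transcripts. Background on these transcripts is that one (NM_207655) encodes the full-length receptor and the other (NM_007912) encodes a shorter, secreted form. The probe of the full-length transcript, at chr11:16813815-16813874 (mm9, plus strand), ran from 5.02 through 5.17 to 5.52 on the wild type array and from 4.43 through 4.56 to 4.80 in the knockout. All 10 spots were lower, and the log2 difference was -0.17 ± 0.05 (SD, n = 10 spots). The difference amounted to 1.13-fold. The probe at chr11:16787172-16787231 went from 0.152 to 0.109, a log2 difference of -0.48, and the probe at chr11:16783556-16783615 went from 0.347 to 0.326, a difference of -0.09. Both were designed against the shorter transcript and had 1 spot each, and whether they also match the longer one was not determined. All 3 probes were lower in knockout skin, and their mean was -0.25. The last of them is printed as an example of a probe on which the genotypes were close.

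Egfr probe at chr11:16783556-16783615: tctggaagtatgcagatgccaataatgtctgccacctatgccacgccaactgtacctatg

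Technical readings of the 5 ligands with a single spot were compared with their surroundings. The SD between pixels of these spots was between 0.0638 and 0.193 of the spot mean, beside a median of 0.152 over all well-detected wild type spots. On the wild type array Ereg (0.192), Epgn (0.168) and Hbegf (0.157) lay above that median, and Areg (0.119) and Btc (0.0638) below it. The 129 to 206 other detected spots within 8 rows and 8 columns of each had medians between -0.09 and -0.02. None of the 5 spots lay in the areas of the arrays where spots scattered or looked damaged, whereas 1 Egf, 1 Egfr, 2 Tgfa and 4 Erbb2 spots did. Among 156 probes of comparable brightness with at least 8 usable spots, the largest SD of the log2 difference between spots was 0.20. The differences of Ereg and Hbegf were several times as large as that. A spread between spots of the same 2 arrays leaves out any error between the arrays or the pools.

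**Figure D3:**
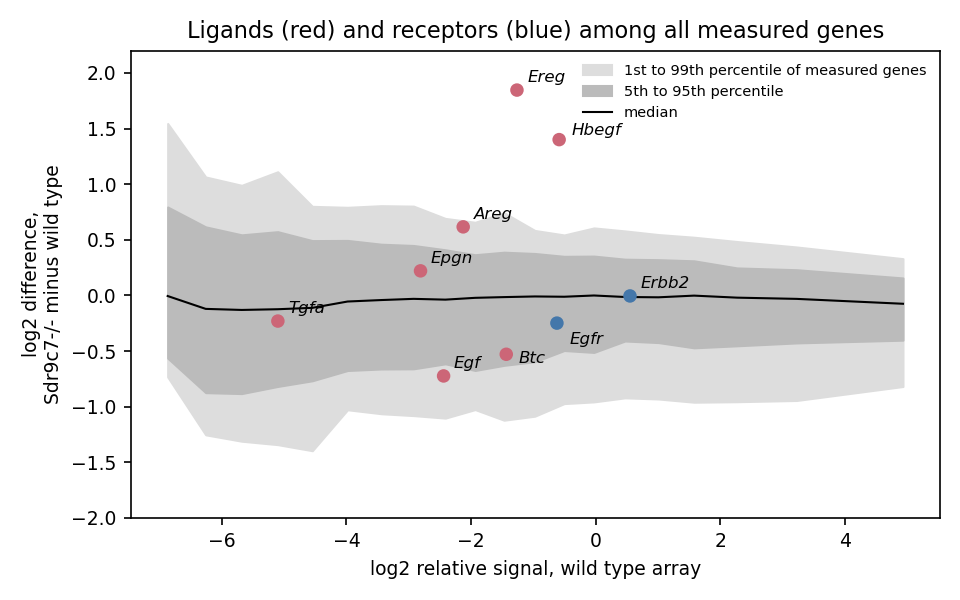
Log2 difference of the ligands (red) and receptors (blue) against their log2 relative signal on the wild type array, with the percentiles of all 22714 measured genes in 20 groups of equal size by signal. Ereg at 1.85 and Hbegf at 1.40 lie above the 99th percentile of genes of their signal (0.74 and 0.54), and the other 7 genes lie between the 1st and the 99th percentile.

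The genes Epgn, Ereg, Areg and Btc lie next to each other on chromosome 5, with no other named protein-coding gene between them. Along this order the log2 differences were 0.22, 1.85, 0.62 and -0.53. Of the 10 nearest named protein-coding neighbours, 5 on each side, 6 were measured and none was 2-fold apart. Beside 1.88% of all measured genes, this is the usual outcome for so few genes. They were the chemokine gene Cxcl1 at 0.72, with dim signals of 0.0439 and 0.0724, and Mthfd2l, a mitochondrial folate enzyme, at 0.27 on the side of Epgn. On the side of Btc they were Parm1 at -0.13, Rchy1 at -0.12, Cdkl2 at 0.04 and G3bp2 at 0.13. The genes on either side of Ereg, Epgn and Areg, were within 2-fold.

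**Figure D4:**
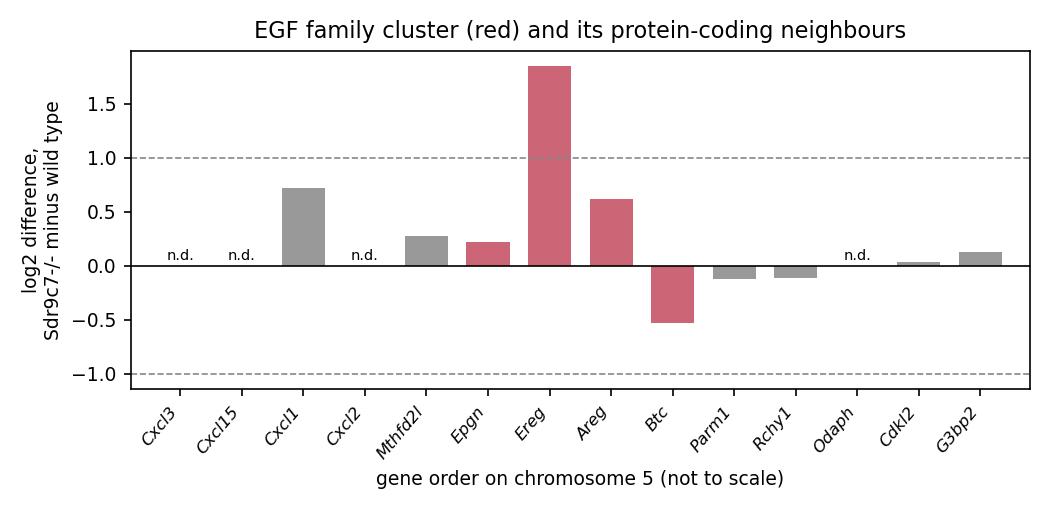
Log2 difference (Sdr9c7-/- minus wild type) of the EGF family cluster (red) and 5 protein-coding neighbours on each side (grey), in gene order on chromosome 5 and not to scale; dashed lines mark 2-fold and n.d. marks genes not well above background on either array. Ereg at 1.85 is the only bar beyond 2-fold, and Btc at -0.53 is the lowest bar.

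For 7 of the 9 genes RefSeq promoter sequences (GRCm38.p6) from 250 bases before to 50 bases after a transcript start were at hand, in 8 entries. They were searched on both strands for 4 motifs of factors that answer to growth factors and cyclic AMP. These were the cyclic AMP response element (CRE, TGACGTCA), the AP-1 site (TGANTCA), the site of the early growth response factors (EGR, GCGNGGGCG) and the CArG box of serum response factor, searched by its consensus. The CRE was found in 1 entry, that of Areg, where it starts 61 bases before the transcript start. The CRE and AP-1 letters begin and end alike, but no stretch matches both. Of all 32851 promoters of this length, 1.79% held the CRE, 7.81% the AP-1 letters, 5.55% the EGR letters and 1.63% a CArG box. The other 3 motifs were found in none of the 8 entries, and a motif of these letters is a description of the sequence and not a measured site. The promoters of the 3 cluster genes with an entry are printed with the CRE in capitals, as a look at neighbours with different values. They lie at chr5:91139349-91139648 (Areg, plus strand), chr5:91027267-91027566 (Epgn, plus strand) and chr5:91402945-91403244 (Btc, minus strand).

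Areg promoter: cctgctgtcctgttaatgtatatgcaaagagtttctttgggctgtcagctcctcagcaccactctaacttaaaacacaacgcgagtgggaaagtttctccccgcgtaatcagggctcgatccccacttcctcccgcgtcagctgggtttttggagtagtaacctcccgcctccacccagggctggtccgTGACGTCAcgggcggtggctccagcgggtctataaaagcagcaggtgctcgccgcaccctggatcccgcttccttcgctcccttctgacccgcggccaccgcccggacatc
Epgn promoter: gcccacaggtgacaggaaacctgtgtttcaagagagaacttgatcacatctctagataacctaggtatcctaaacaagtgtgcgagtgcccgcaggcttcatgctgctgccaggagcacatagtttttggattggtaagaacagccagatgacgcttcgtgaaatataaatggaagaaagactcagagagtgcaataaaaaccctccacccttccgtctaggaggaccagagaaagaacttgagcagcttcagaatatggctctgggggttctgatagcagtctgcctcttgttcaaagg
Btc promoter: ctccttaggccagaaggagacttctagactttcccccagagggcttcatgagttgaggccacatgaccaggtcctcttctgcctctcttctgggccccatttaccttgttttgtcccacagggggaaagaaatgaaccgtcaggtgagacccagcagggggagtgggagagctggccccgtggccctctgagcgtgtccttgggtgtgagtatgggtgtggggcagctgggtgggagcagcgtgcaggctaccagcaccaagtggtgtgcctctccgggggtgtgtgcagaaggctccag

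The rest of the pathway was read from 6 lists with 103 genes, of which 98 were measured. At least 2-fold higher were 5 of these, none was at least 2-fold lower and 93 were within 2-fold. This is 5 of 98 genes beside 0.528% of all measured genes on the higher side. The lists were chosen with earlier results of these data known, so the shares describe them and test nothing. Of the 5, 4 were early response genes.

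Other receptors and ligands of the family were within 2-fold. Erbb4, a further receptor for Ereg and Hbegf, and Nrg3 were not well above background on either array. Erbb3, the receptor of the neuregulins, was measured, and the 4 measured genes ran from Nrg1 at -0.22 to the neuregulin Nrg2 at 0.77. Nrg2 was dim, at 0.0533 in wild type and 0.0909 in knockout skin. The Nrg1 probe lay in an area where spots scattered or looked damaged.

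The proteases that release the ligands and their regulators, 11 genes, had a median of -0.07. None was beyond 1.5-fold, beside 8.40% of all measured genes, a share that amounts to about 1 gene in a list of this size. Adam17, the main sheddase of Areg, Ereg and Hbegf precursors, was at 0.21 over 2 probes, and Adam10, which releases Egf and Btc, at 0.23. The lowest was Timp3, an inhibitor of Adam17, whose relative signal was 8.75 in wild type and 6.61 in knockout skin, a log2 difference of -0.40.

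Inhibitors and feedback regulators of the receptor, 22 genes, had a median of 0.01. Again 0 of them were beyond 1.5-fold, where the share of all measured genes would give about 2. Errfi1, which binds and blocks the receptor kinase, was at -0.06, with relative signals of 7.38 and 7.06. Dusp6, the ERK phosphatase that is induced by ERK activity, was at 0.11, and Spry2 and Spry4, Sprouty inhibitors of the Ras cascade, were at 0.01 and 0.10. The range ran from Socs4 at -0.39 to Socs5 at 0.49, both of which encode proteins that promote receptor turnover. The Socs5 probe lay in an area where spots scattered or looked damaged.

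Adaptors and kinases of the cascade, 25 genes, had a median of -0.04. Beyond 1.5-fold was 1 of the 25, beside 8.40% of all measured genes. It was Sos1, the exchange factor that loads Ras, at 0.90. Its single measured probe was dim, at 0.0289 in wild type and 0.0540 in knockout skin. The lowest was Pik3cb, a catalytic subunit of phosphoinositide 3-kinase, at -0.37.

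Early response genes had a median difference of 0.47 over 18 genes, with 15 of them above 0. Over all measured genes the median was -0.04. Beyond 2-fold were 4, namely Fos (1.73), Egr1 (1.64), Fosb (1.55) and Fosl1 (1.11), all encoding transcription factors. This is 4 of 18 genes beside 0.528% of all measured genes. The list was chosen with earlier results of these data known, so this share is a description and no test. Fosl1 was dim, at 0.0610 and 0.132, and stood at 0.78 after normexp background correction, below 2-fold. A further 3 were between 1.5-fold and 2-fold higher, among them the stress factor Atf3 (0.85) and the phosphatase Dusp1 (0.80). Over 1.5-fold in either direction were 8.40% of all measured genes. The lowest was Egr2, a relative of Egr1, at -0.27, with relative signals of 2.40 and 1.99. These genes answer to many stimuli besides the EGF receptor, and whether any of them acted here was not tested.

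Keratinocyte genes known to respond to receptor activation had a median of 0.06 over 18 measured genes out of 21. Slpi, a secreted protease inhibitor, was the 1 gene of these 18 beyond 2-fold, beside 1.88% of all measured genes, at 1.15, with relative signals of 0.0633 and 0.141. After normexp background correction no gene of the list was beyond 2-fold. Tnc, the matrix protein tenascin C, was lowest of the genes measured on both arrays at -0.84, but its 2 probes gave -1.28 and -0.41. Mmp10, a matrix metalloproteinase, was well above background on the wild type array only. For a bound, the other array was given the probe's own signal or the lowest well above background anywhere on it, whichever was higher. By this rule Mmp10 was 1.97-fold higher in the wild type. Its knockout signal was not well above background, so this is no firm minimum. Mmp13, another of these enzymes, was well above background on the knockout array only. Its bound was -0.12 on the log2 scale, so detection on 1 array gave no direction there. The 2 probes of Krt6b, a keratin of activated keratinocytes, also disagreed, with 0.12 and 1.03. With the brightest probe of each gene in place of the mean, 3 genes of this list were at least 2-fold apart.

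**Figure D5:**
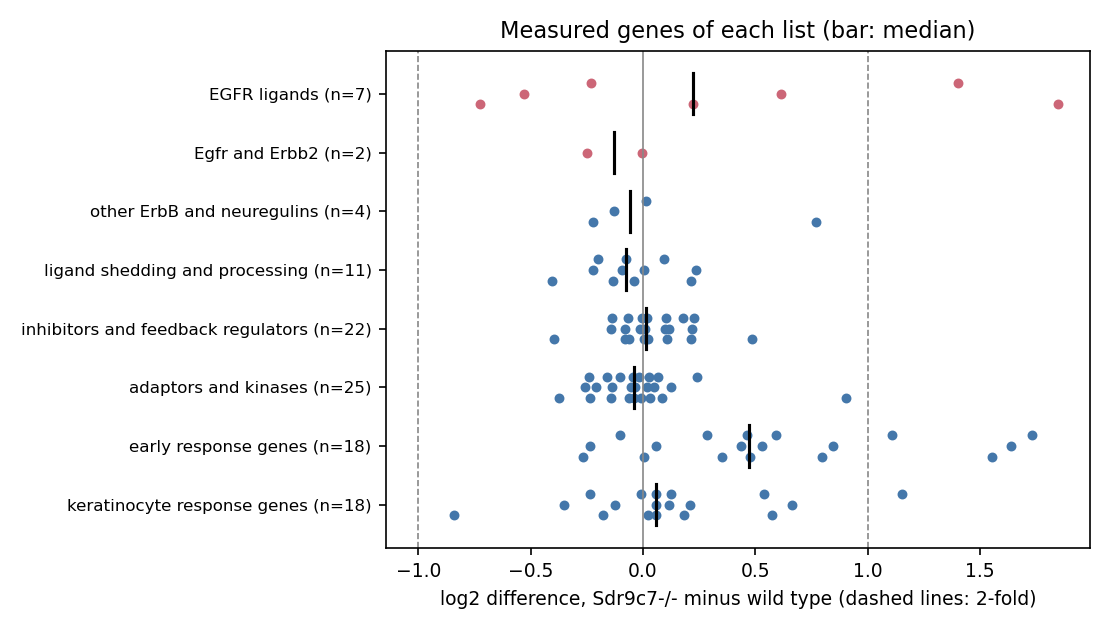
Log2 difference (Sdr9c7-/- minus wild type) of each measured gene of the ligands and receptors (red) and of 6 pathway lists (blue), with a black bar at the median of each list and dashed lines at 2-fold; vertical scatter within a list has no meaning. The early response genes have a median of 0.47, whereas the shedding, inhibitor and cascade lists have medians of -0.07, 0.01 and -0.04.

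Markers of the cells that could carry these transcripts were read beside them. Basal keratinocyte markers had a median of 0.10 over 7 genes, from Trp63 at -0.09 to Krt15 at 0.34, and suprabasal markers 0.03 over 7 genes, from Lor at -0.15 to Ivl at 0.26. The summed relative signal of the basal list was 143 in wild type and 162 in knockout skin, and that of the suprabasal list 372 and 358. Bright probes weigh most in these sums, and the suprabasal sum fell although the median of its list was above 0. Hair follicle markers had a median of -0.15 over 7 genes, from Krt35 at -0.60 to Shh at 0.14, and fibroblast markers -0.03, from Col1a1 at -0.20 to Twist2 at 0.26. Leukocyte markers had a median of 0.06 over 7 genes, from Cd3e at -0.21 to Fcer1a at 0.40, with Cd207, the marker of Langerhans cells, not well above background on either array. Endothelial markers had a median of -0.21, from Lyve1 at -0.31 to Prox1 at 0.48. Prox1 was dim, at 0.0154 in wild type and 0.0215 in knockout skin. The only measured probes of Krt35, Cd3e and Prox1 lay in areas where spots scattered or looked damaged. So did those of the hair follicle genes Krt25, Krt71, Msx2 and Lhx2, and Lhx2 gave the median of that list. The hair follicle markers outside these areas, Shh and Foxn1, were each at 0.14. Skeletal muscle markers ran from Pvalb at -2.26 to Myh3 at -0.54, and adipocyte markers from Cfd at -1.76 to Pparg at -0.02. Ereg and Hbegf thus had higher signed differences than every measured gene of these lists, while Pvalb and Cfd lay about as far below 0 as Ereg lay above it. That of Egf lay within the ranges of the muscle and fat lists, and that of Btc within the ranges of the fat and hair follicle lists. The part of the hair follicle range below 0 came only from probes in scattering or damaged areas. Whether the cell types contribute to any of these values was not tested.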

How the data were processed

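The authors' deposited scanner files hold the processed intensity of each spot, which per the file headers was spatially and multiplicatively detrended within each array by Agilent Feature Extraction 11.5.1.1. Per the labels, 200 ng of total RNA was labelled with Cy3. The deposited series matrix holds a ratio, which equalled the processed intensity over 1 constant per array (1906 and 2080), given in the file headers as a percentile intensity. The log2 intensities were computed here with Python 3.11.15. Control spots and 192 outlier spots were left out (3 of 47 spots of the genes described), spots of a probe were averaged, and each array was scaled to its 75th percentile over 39417 probes. Probes that both arrays measured well above background, none of them saturated, were averaged for each gene. Of the probes, 28319 were named through a RefSeq accession, 2209 by symbol, 174 by synonym (gene table GRCm38.p6) and 8715 as in the files. Probe coordinates are on mm9. The steps were tested on simulated data. Alternatives used limma 3.58.1 (normexp, offset 50; quantile; loess), median scaling, other probe rules, the ratio table, and removal of areas that scattered or looked damaged (rows 98 to 152 and 434 to 477, and rows 496 to 515 in columns 5 to 20). Removing only the spots in these areas was added after seeing the data.

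With 1 array per genotype no test was run, and the number of arrays limits the precision. The genes, the lists and the rule for naming genes were chosen with earlier results of these data known. The rule names the 9 genes, Sdr9c7, the members of each list at least 2-fold apart, the highest and lowest of each list and the neighbours on chromosome 5; the genes nearest to Ereg in signal, also in the rule, are left out because that distance sets levels of different probes against each other. Adam17, Mmp10, Mmp13, Errfi1, Dusp6, Spry2, Spry4, Atf3, Dusp1, Krt6b, Krt1, Krt5, Erbb3, Erbb4, Nrg3 and Cd207 are named outside it, after their values were seen. The same holds for Krt25, Krt71, Msx2, Lhx2 and Foxn1. One further marker list is not reported here.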

Additional observations from a re-analysis of the deposited data

How the results depend on the processing

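No paired analysis was possible because each genotype has 1 array, and for the same reason no array could be left out. Ereg kept a log2 difference between 1.73 and 1.89 and Hbegf between 1.33 and 1.45 under every alternative run, and those 2 remained the genes of the 9 beyond 2-fold. Several alternatives could hardly move these 2 values. The rules on dim probes and on the brightest probe leave a gene with 1 usable probe as it is. Median scaling, the ratio table and the removal of areas shifted both genes by the same amount. These ranges are therefore no measure of error. Areg ranged from 0.53 to 0.67, Egf from -0.72 to -0.61, Btc from -0.53 to -0.48, Epgn from 0.13 to 0.28, Tgfa from -0.24 to -0.15 and Egfr from -0.28 to -0.17. Both ends of the Egfr range came from the choice of probes. The probe of the full-length transcript alone gave -0.17, and the other 2 probes without it gave -0.28. Erbb2 ranged from -0.01 to 0.04, so its sign has no meaning. The median over the 9 genes moved to 0.42 when probes with a spot in a scattering or damaged area were left out, because this removed Egf, Tgfa and Erbb2, which have many spots, and left 6 genes.

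Counts over all genes moved more. From 427 genes at least 2-fold apart (120 higher, 307 lower), normexp correction left 136 (33 higher, 103 lower), and all probes without a filter on dim signals gave 1792 (814 higher, 978 lower). Leaving out probes with a spot in those areas gave 256 (69 and 187), and leaving out only the spots 261 (72 and 189). Without the filter 1 gene of the other ErbB receptors and neuregulins and 3 of the keratinocyte response genes were 2-fold apart; normexp left 0 of the latter, and the brightest probe gave 3. The Sdr9c7 difference was -2.05 after normexp. The median over all genes stayed between -0.07 and 0.01. Of the 4 early response genes beyond 2-fold, 3 were so after normexp (Fosl1 at 0.78) and 3 without the probes in those areas, which removed Fos. Dim probes limit what can be read: genes at the signal of Tgfa spread from -0.82 to 0.57 (5th to 95th percentile). Single-spot probes have no technical repeat.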
